A study of Oryctolagus cuniculus with 6 samples.

Results

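Transcripts of 10 genes that organise and silence chromatin were followed in rabbit facial nerve after transection, with and without an I-125 seed. They were CTCF and YY1, the cohesin genes RAD21, SMC1A, SMC3 and STAG2, the cohesin loader NIPBL, and EZH2, SUZ12 and EED of Polycomb repressive complex 2 (PRC2). Members were taken by gene symbol, with no threshold on their values. All 10 symbols were found among the 17396 genes with counts, and all 10 were among the 14003 genes that passed the filter on low counts and were tested. CTCF was included because the study places this factor upstream of CNTNAP2 and NFASC in Schwann cells. The question for each gene was whether its transcript level differed between the groups, and how far it varied among nerves of the same group.

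CTCF is a zinc finger protein that binds DNA and halts cohesin, a ring of SMC1A, SMC3 and RAD21 that extrudes chromatin into loops. STAG proteins attach to the ring and contact CTCF, NIPBL with MAU2 loads and drives it, and WAPL with PDS5 proteins releases it. YY1 is a zinc finger protein that bridges promoters and enhancers. PRC2 methylates histone H3 at lysine 27 through EZH2 or EZH1, with SUZ12 and EED as core partners, and keeps developmental genes silent. In peripheral nerve, PRC2 and CTCF have been studied for their part in how Schwann cells turn between the myelinating and the injury state.

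RNA sequencing counts were available for 6 nerves, 3 in the FNI group (facial nerve injury) and 3 in the FNI+I-125 group. The animals were wild type male Japanese white rabbits aged 3 to 4 months. The left main trunk of the facial nerve had been cut in every rabbit of both groups, and the FNI+I-125 group also received an I-125 seed of 0.8 mCi, a sealed source of radioactive iodine used in brachytherapy, next to the nerve. Nerves were taken on day 14, and the study's methods give 3 rabbits per group. None of the 6 libraries is from the uninjured sham group. The labels do not state that each library is from a separate rabbit. If any are not, the p-values cover a spread that is partly technical.

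Totals ran from 16031151 to 16798012 counts per library, with a count for 15661 to 16139 genes. The nerves differed in what tissue they carried. The summed level of 9 Schwann cell markers ran from 4243 to 38505 CPM (counts scaled to a common library size) in the FNI group and from 844 to 3996 CPM in the FNI+I-125 group, with all 9 detected in every library. Skeletal muscle markers summed to 4875 and 4322 CPM in FNI+I-125 replicates 1 and 2 and to at most 156 CPM in the other libraries. Gland and epithelial markers reached 48782 CPM in FNI replicate 2, beside 51.1 to 2952 CPM elsewhere. In such bulk RNA, fewer cells of a type and less RNA per cell cannot be told apart.

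Among the 10 genes, 0 differed between the groups at an adjusted p under 0.05, and this quasi-likelihood test of edgeR, adjusted by the method of Benjamini and Hochberg, called 0% of all 14003 genes. At an unadjusted p under 0.05 the count was 0 of 10 beside 17% of all genes. The log2 fold change of FNI+I-125 over FNI was positive for 4 genes and negative for 6. Its median was -0.04 over the members and 0.01 over all genes tested. Sizes ran from 0.04 for SMC1A to 0.54 for EZH2, with a median absolute log2 fold change of 0.09 beside 0.31 for all genes. SUZ12 was the one gene of the 10 whose 3 FNI+I-125 libraries all lay above the 3 FNI libraries, a pattern found in 14.8% of all genes tested. The opposite pattern, with every FNI+I-125 library lower, was found in 0 members and in 12.3% of all genes tested. The 95% intervals of all 10 log2 fold changes lay inside the limits of -1.5 and 1.5 by which the study defines a differentially expressed gene, as did those of 68.3% of all genes.

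**Figure D1:**
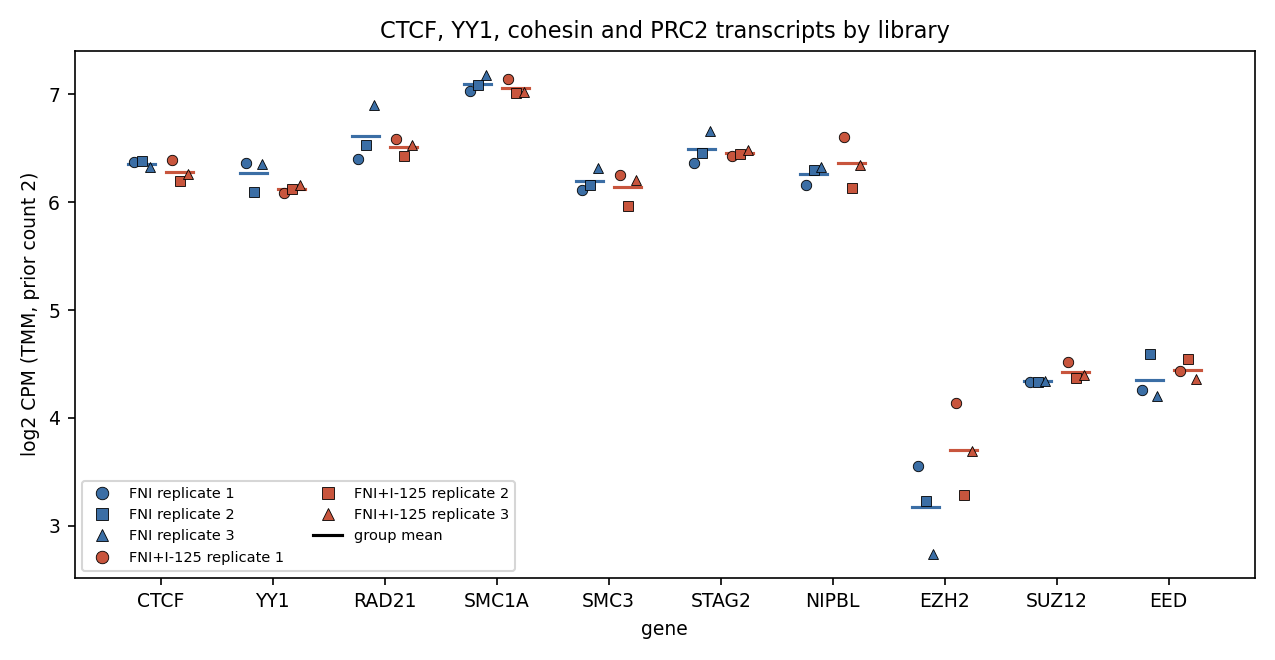
Level of each of the 10 genes in each library, in log2 CPM after TMM (trimmed mean of M-values) normalization, on an axis that does not start at 0. Points are libraries, blue for FNI and red for FNI+I-125, and horizontal lines are group means. Points of the groups overlap for 9 genes, and EZH2 has the widest scatter with levels from 6.56 to 17.5 CPM.

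The CTCF transcript was at nearly one level in all 6 nerves. FNI replicates 1 to 3 held 1414, 1318 and 1353 CTCF counts, and FNI+I-125 replicates 1 to 3 held 1281, 1199 and 1308, the order kept in all values per library. After normalization these were 82.8, 83.0 and 80.0 CPM in the FNI libraries against 83.7, 73.0 and 76.8 CPM in the FNI+I-125 libraries. FNI+I-125 replicate 1 was the highest library of the 6 and the other two of its group were the lowest, so the groups overlapped. Mean levels were 81.9 ± 1.71 CPM in the FNI group and 77.8 ± 5.45 CPM in the FNI+I-125 group (SD, n = 3 each). CTCF had a log2 fold change of -0.07 with a standard error of 0.10 (adjusted p = 0.711, edgeR's quasi-likelihood test). Its 95% interval ran from -0.33 to 0.18, which in linear terms is from 0.796 to 1.13 times the FNI level. Two-sided exact permutation of the log2 CPM values gave p = 0.4, where the smallest p that 3 against 3 libraries allow is 0.1. Without FNI+I-125 replicate 1 the log2 fold change of CTCF was -0.13, and without FNI replicate 3 it was -0.11. In both cases, normalized anew, the groups no longer overlapped. By western blotting in a separate set of rabbits, the study reports CTCF protein as lower in the I-125 group than in the FNI group. It also reports lower CTCF mRNA, by RT-qPCR, in cultured human Schwann cells exposed to I-125. These libraries hold transcripts of whole nerve and no protein, and how the results relate was not tested.

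YY1, the zinc finger factor that the study's discussion pairs with CTCF in axon regeneration, had counts of 1408, 1083 and 1383 in the FNI libraries against 1037, 1140 and 1218 in the FNI+I-125 libraries. These were 82.5, 68.2 and 81.7 CPM against 67.8, 69.4 and 71.5 CPM. FNI replicate 2 lay among the FNI+I-125 libraries, while the other two FNI libraries lay above all of them. Group means were 77.5 ± 8.02 and 69.6 ± 1.87 CPM (SD, n = 3 each). YY1 had a log2 fold change of -0.16 with a standard error of 0.12 and a 95% interval from -0.44 to 0.13 (adjusted p = 0.486, edgeR's quasi-likelihood test, and p = 0.3 by the exact permutation test). Without FNI replicate 2 it was -0.24, and the groups no longer overlapped. The ratio of YY1 to CTCF differed by -0.07 on the log2 scale between the group means (exact permutation test, p = 0.5, adjusted p = 0.833 over the 10 ratios computed here, a set chosen after counts had been seen).

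Profiles were compared with that of CTCF by the root mean square difference of log2 CPM after each gene's mean was removed. The 3 genes nearest to CTCF over the 6 libraries are given. They were LOC100343926, which the RefSeq gene table names LCOR, with a difference of 0.034, RNF40 with 0.034 and PCBP2 with 0.035. LCOR is a corepressor of nuclear receptors, RNF40 a subunit of the ubiquitin ligase of histone H2B, and PCBP2 an RNA-binding protein. Their log2 fold changes were -0.06, -0.08 and -0.11. Since CTCF varied little, the measure is also small for other genes that vary little, and shared regulation was not tested. Among the partners and relatives of CTCF and YY1 in a list of 10 genes, 8 were in the counts and 6 were tested. Of these, 4 had a positive and 2 a negative log2 fold change, 0 had an unadjusted p under 0.05 in edgeR's test, and their median was 0.05. ZNF143, a zinc finger factor found with CTCF at loop anchors, had the smallest p of those with a positive value (log2 fold change 0.20, standard error 0.17). VEZF1, another zinc finger factor, had the smallest p of those with a negative one (-0.13, standard error 0.11). CTCFL and MAZ were not matched, and the low counts of YY2 and ZFP42 kept them out of the test.

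CNTNAP2, a cell adhesion protein of the axon beside the node of Ranvier, and NFASC, the neurofascin that anchors the myelin loops and the node, varied widely among the same libraries. CNTNAP2 stood at 12.8, 25.8 and 2.25 CPM in the FNI nerves, against 4.18, 8.52 and 38.6 CPM in those with a seed. The groups overlapped, with 2 FNI+I-125 libraries inside the FNI range and replicate 3 of that group above it. CNTNAP2 had a log2 fold change of 0.33 with a standard error of 1.08 (adjusted p = 0.884, edgeR's quasi-likelihood test), and it was -1.10 without FNI+I-125 replicate 3 and -0.20 without FNI replicate 3. NFASC stood at 59.7, 23.9 and 608 CPM in the FNI libraries against 5.88, 25.7 and 7.51 CPM in the FNI+I-125 libraries. FNI replicate 3 was far above the rest, and FNI+I-125 replicate 2 was above FNI replicate 2. NFASC had a log2 fold change of -4.14 with a standard error of 1.41 (adjusted p = 0.280, edgeR's quasi-likelihood test). With 1 library left out it ran from -5.13, without FNI+I-125 replicate 2, to -1.69, without FNI replicate 3. The groups no longer overlapped without FNI+I-125 replicate 2, or without FNI replicate 2, where it was -4.68. With DESeq2 the estimate was -4.15 and the adjusted p was 0.00736. The study counts NFASC among its down-regulated genes at a q-value under 0.05, by a test that its methods do not name. By western blotting it also reports NFASC and CNTNAP2 proteins as lower with I-125, in rabbit nerve and in cultured Schwann cells. Protein was not measured in these libraries. The 9 Schwann cell markers also summed highest in FNI replicate 3, and their part in the NFASC difference was not tested.

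**Figure D2:**
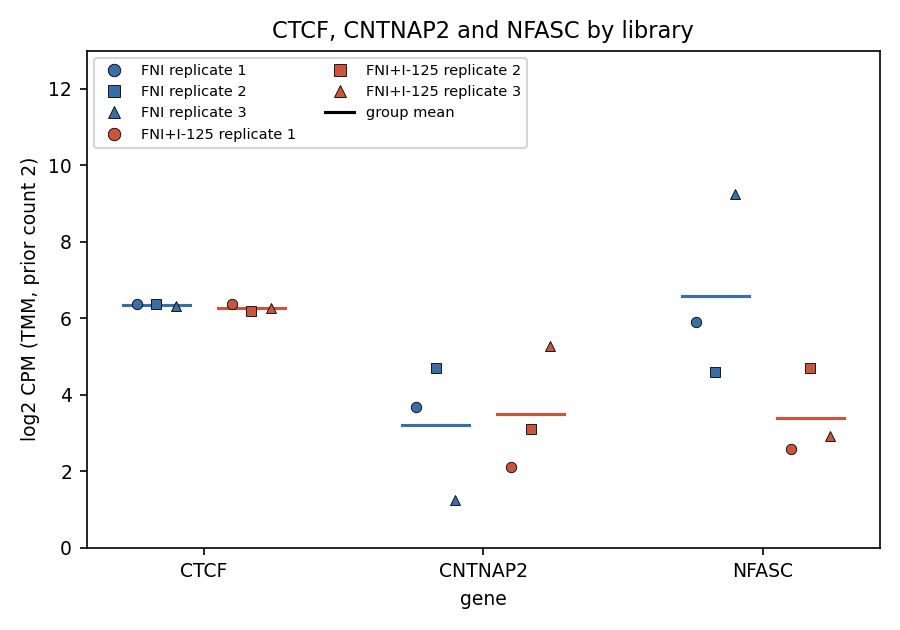
Levels of CTCF, CNTNAP2 and NFASC in log2 CPM in each library, with blue points for FNI, red points for FNI+I-125 and lines for group means. CTCF lies between 73.0 and 83.7 CPM in all libraries, while CNTNAP2 runs from 2.25 to 38.6 CPM and NFASC from 5.88 to 608 CPM.

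The spread within groups put CTCF far below both genes that the study places downstream of it. The SD of log2 CPM about the group means, with 4 degrees of freedom, was 0.07 for CTCF, 1.70 for CNTNAP2 and 1.88 for NFASC. Among the 14003 genes tested, ordered from the smallest SD, CTCF stood at the 2.64 percentile, CNTNAP2 at the 96.1 percentile and NFASC at the 96.9 percentile. The highest library held 1.15 times the CTCF level of the lowest, 17.2 times the CNTNAP2 level and 103 times the NFASC level.

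The 4 cohesin ring and STAG genes showed small differences between the groups, all slightly below 0 on the log2 scale and none past the test. SMC1A and SMC3 are the coiled-coil ATPases of the ring. SMC1A counts were 2232, 2149 and 2454 in the FNI libraries against 2157, 2117 and 2205 in the FNI+I-125 libraries, which were 131, 135 and 145 CPM against 141, 129 and 129 CPM. FNI+I-125 replicate 1 lay inside the FNI range and the other two of its group lay just under it. SMC1A had a log2 fold change of -0.04 with a standard error of 0.11 and a 95% interval from -0.31 to 0.22 (adjusted p = 0.851, edgeR's quasi-likelihood test). SMC3 counts were 1179, 1131 and 1351 against 1167, 1022 and 1259, or 69.0, 71.2 and 79.8 CPM against 76.3, 62.2 and 73.9 CPM. FNI+I-125 replicate 2 was the lowest of the 6 libraries, and the other two lay inside the FNI range. SMC3 had a log2 fold change of -0.05 with a standard error of 0.13 and a 95% interval from -0.37 to 0.26 (adjusted p = 0.843, edgeR's quasi-likelihood test). The ratio of SMC1A to SMC3 differed by 0.01 on the log2 scale (exact permutation test, p = 0.9).

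RAD21, the subunit that closes the ring and is cut at anaphase, had the widest range of the cohesin genes. Its counts were 1441, 1463 and 2016 in the FNI libraries against 1465, 1410 and 1574 in the FNI+I-125 libraries, or 84.4, 92.2 and 119 CPM against 95.8, 85.8 and 92.4 CPM. FNI replicate 3 stood above the other 5 libraries, which lay close together with the groups mixed. Group means were 98.6 ± 18.2 and 91.3 ± 5.05 CPM (SD, n = 3 each). RAD21 had a log2 fold change of -0.11 with a standard error of 0.16 and a 95% interval from -0.50 to 0.28 (adjusted p = 0.720, edgeR's quasi-likelihood test). Without FNI replicate 3 it was 0.03. The variance of RAD21 between libraries was 30.7 times what counting alone gives, the largest such ratio among the 10 genes. The median of this ratio was 7.94 over the 10 genes and 13.4 over all genes tested.

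STAG2, the more widely expressed of the somatic STAG subunits, had counts of 1406, 1396 and 1707 in the FNI libraries against 1318, 1435 and 1525 in the FNI+I-125 libraries. These were 82.3, 87.9 and 101 CPM against 86.1, 87.3 and 89.5 CPM, with all 3 FNI+I-125 libraries inside the FNI range. STAG2 had a log2 fold change of -0.04 with a standard error of 0.12 and a 95% interval from -0.33 to 0.24 (adjusted p = 0.855, edgeR's quasi-likelihood test), and it was 0.02 without FNI replicate 3. Its paralogue STAG1 stood at 49.7, 47.4 and 58.3 CPM against 52.7, 46.2 and 54.7 CPM, with a log2 fold change of -0.02 and a standard error of 0.13. The ratio of STAG2 to STAG1 differed by -0.02 on the log2 scale (exact permutation test, p = 0.8), and that of RAD21 to SMC3 by -0.04 (exact permutation test, p = 0.7). Over the list of 9 ring and STAG genes, meiotic forms included, 8 were in the counts and 7 were tested, of which 1 had a positive and 6 a negative log2 fold change, with a median of -0.04. None of the 7 had an unadjusted p under 0.05 in edgeR's test. REC8, the meiotic counterpart of RAD21 (log2 fold change -0.61, standard error 0.42), and STAG3, the meiotic STAG (0.62, standard error 0.74, at under 1 CPM in every library), had the smallest p in each direction.

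**Figure D3:**
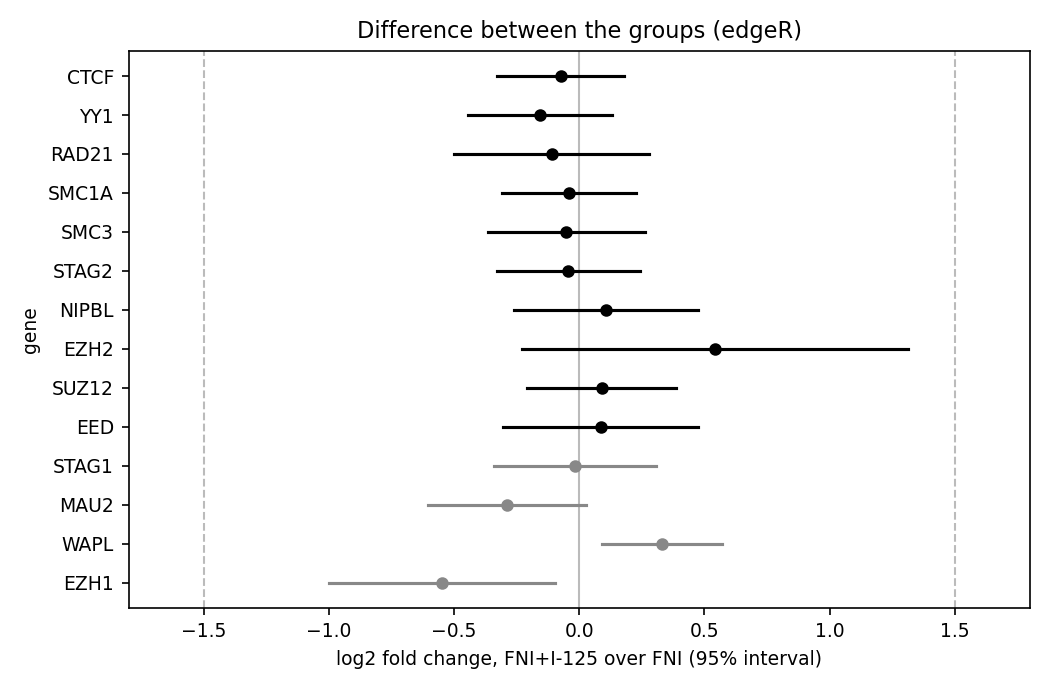
Log2 fold change of FNI+I-125 over FNI with its 95% interval from edgeR, for the 10 genes in black and for STAG1, MAU2, WAPL and EZH1 in grey. Dashed lines mark -1.5 and 1.5. The 10 black intervals all hold 0, that of EZH2 is the widest and runs from -0.23 to 1.31, and those of WAPL and EZH1 leave out 0 before adjustment over all genes.

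NIPBL, which loads cohesin and stimulates loop extrusion, had counts of 1218, 1250 and 1359 in the FNI libraries against 1485, 1149 and 1386 in the FNI+I-125 libraries. These were 71.3, 78.7 and 80.3 CPM against 97.1, 69.9 and 81.4 CPM. The FNI+I-125 group held both the highest and the lowest of the 6 libraries, in replicates 1 and 2, so it spanned the whole FNI group. NIPBL had a log2 fold change of 0.11 with a standard error of 0.15 and a 95% interval from -0.26 to 0.48 (adjusted p = 0.709, edgeR's quasi-likelihood test). Without FNI+I-125 replicate 1 it was -0.02.

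The genes around NIPBL that load, release and regulate cohesin were taken as a list of 12. All 12 were tested, 9 had a positive and 3 a negative log2 fold change, and the median was 0.29. The largest were those of SGO1 (1.41), ESPL1 (0.96) and ESCO2 (0.87), named after their values were seen. Each was highest in FNI+I-125 replicate 1 and lowest in FNI replicate 3, as was the sum of proliferation markers given below. The part of proliferation in the values of this list was not tested. At an unadjusted p under 0.05 in edgeR's test 2 of the 12 were higher in FNI+I-125 and 0 lower. This stands beside 17% of all genes in either direction, and after adjustment the count was 0. WAPL, which opens the ring and takes cohesin off chromatin, stood at 61.0, 60.3 and 64.0 CPM in the FNI libraries against 81.1, 75.2 and 76.8 CPM in the FNI+I-125 libraries. Each FNI+I-125 library lay above every FNI library. WAPL had a log2 fold change of 0.33 with a standard error of 0.10 (unadjusted p = 0.0145, adjusted p = 0.280, edgeR's quasi-likelihood test). MAU2, the partner of NIPBL in the loader, stood at 57.9, 55.9 and 71.0 CPM against 51.2, 48.9 and 51.3 CPM, so that all FNI+I-125 libraries were under the lowest FNI library. MAU2 had a log2 fold change of -0.29 with a standard error of 0.13 (adjusted p = 0.313, edgeR's quasi-likelihood test). Scaled by library size only, MAU2 overlapped between the groups, with a log2 fold change of -0.31. The log2 ratio of NIPBL to MAU2 was 0.30, 0.49 and 0.18 in the FNI libraries against 0.92, 0.51 and 0.66 in the FNI+I-125 libraries. The groups did not overlap, with a difference of 0.38 (exact permutation test, p = 0.1, the smallest possible, and adjusted p = 0.333 over the 10 ratios). PDS5A, a partner of WAPL on the ring, and HDAC8, the deacetylase of SMC3, were also without overlap and higher in FNI+I-125. Their log2 fold changes were 0.24 (adjusted p = 0.305) and 0.46 (adjusted p = 0.286, both from edgeR's test). PDS5B, the paralogue of PDS5A, was at -0.13 with a standard error of 0.15, and its groups overlapped. PDS5A, PDS5B and HDAC8 were picked out after their values were seen. Of the 12 genes, 3 were without overlap and higher and 1 lower, beside 14.8% and 12.3% of all genes tested.

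EZH2, the PRC2 methyltransferase that is most abundant in dividing cells, had the largest difference of the 10 genes and also the widest spread. Its counts were 198, 147 and 111 in the FNI libraries against 267, 158 and 219 in the FNI+I-125 libraries. These were 11.6, 9.26 and 6.56 CPM against 17.5, 9.62 and 12.9 CPM. FNI+I-125 replicates 1 and 3 exceeded all FNI libraries, while FNI+I-125 replicate 2 was under FNI replicate 1. Group means were 9.14 ± 2.52 and 13.3 ± 3.94 CPM (SD, n = 3 each). EZH2 had a log2 fold change of 0.54 with a standard error of 0.32 and a 95% interval from -0.23 to 1.31, which in linear terms is from 0.853 to 2.48 times the FNI level (adjusted p = 0.383, edgeR's quasi-likelihood test). The exact permutation test gave p = 0.2. With 1 library left out the log2 fold change of EZH2 lay between 0.30, without FNI+I-125 replicate 1, and 0.75, without FNI replicate 1. The groups no longer overlapped without FNI replicate 1 or without FNI+I-125 replicate 2.

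Markers of proliferation were read beside EZH2. The summed level of the 14 markers was 210, 225 and 170 CPM in the FNI libraries against 462, 271 and 317 CPM in the FNI+I-125 libraries. EZH2 and this sum shared their highest library, FNI+I-125 replicate 1, and their lowest, FNI replicate 3. Of the 14 genes 13 had a positive log2 fold change, with a median of 0.85. Without overlap and higher in FNI+I-125 were 12, beside 14.8% of all genes tested. In edgeR's test 9 had an unadjusted p under 0.05, beside 17% of all genes, and 0 passed after adjustment. MKI67, the antigen of cycling cells, had a log2 fold change of 1.42 with a standard error of 0.42. AURKB, a mitotic kinase, was the exception at -1.15 with a standard error of 0.86. By immunofluorescence the study reports Ki67, the protein of MKI67, as lower in the I-125 group than in the FNI group. That staining was of a separate set of rabbits, and its direction is opposite to that of the MKI67 transcript here. The reason was not tested. EZH2 amounted to 5.52%, 4.11% and 3.86% of the summed marker level in the FNI libraries and to 3.78%, 3.55% and 4.05% in the FNI+I-125 libraries. The groups overlapped on this scale (exact permutation test, p = 0.2), which was chosen after values had been seen. EZH2 in CPM overlapped as well and gave the same exact permutation p, so the part of proliferation in its values was not tested.

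EZH1, the paralogue of EZH2 that prevails in resting cells, had the opposite sign. It stood at 97.3, 90.6 and 134 CPM in the FNI libraries against 78.1, 76.7 and 65.4 CPM in the FNI+I-125 libraries. All FNI+I-125 values were under the lowest FNI value. EZH1 had a log2 fold change of -0.55 with a standard error of 0.18 and a 95% interval from -1.0 to -0.10 (unadjusted p = 0.0247, adjusted p = 0.280, edgeR's quasi-likelihood test). Leaving out 1 library kept it between -0.66 and -0.37. The log2 ratio of EZH2 to EZH1 was -3.06, -3.27 and -4.33 in the FNI libraries against -2.15, -2.98 and -2.34 in the FNI+I-125 libraries, without overlap. The group means of this ratio differed by 1.06 (exact permutation test, p = 0.1, the smallest possible, and adjusted p = 0.333 over the 10 ratios). EZH1 relative to SUZ12 differed by -0.62 and EZH2 relative to SUZ12 by 0.44 on the same scale (exact permutation tests, p = 0.1 and p = 0.2).

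**Figure D4:**
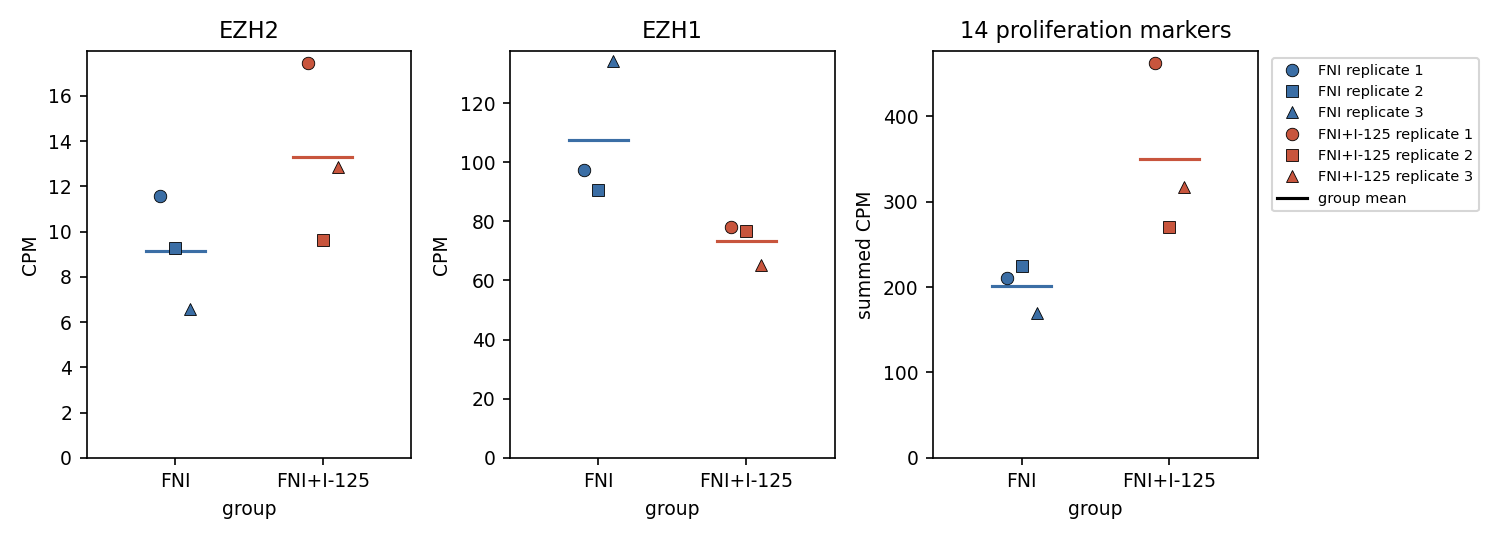
Levels in CPM of EZH2, EZH1 and the sum of 14 proliferation markers in each library, with each vertical axis starting at 0, blue points for FNI, red points for FNI+I-125 and lines for group means. EZH2 overlaps between the groups, EZH1 is lower in each FNI+I-125 library, and the marker sum is higher in each FNI+I-125 library, from 271 to 462 CPM.

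SUZ12, the scaffold of PRC2, had the smallest SD of log2 CPM among the 10 genes under TMM normalization. With upper-quartile factors SMC1A had a smaller SD, with library size only CTCF, without FNI replicate 2 YY1 and without FNI replicate 3 STAG2. Its counts were 342, 319 and 342 in the FNI libraries against 348, 337 and 357 in the FNI+I-125 libraries, which were 20.0, 20.1 and 20.2 CPM against 22.7, 20.5 and 21.0 CPM. The FNI libraries were almost equal and each FNI+I-125 library lay slightly above them. Group means were 20.1 ± 0.09 and 21.4 ± 1.18 CPM (SD, n = 3 each). SUZ12 had a log2 fold change of 0.09 with a standard error of 0.12 and a 95% interval from -0.21 to 0.39 (adjusted p = 0.700, edgeR's quasi-likelihood test, and exact permutation p = 0.1, the smallest possible). Scaled by library size only, or by upper-quartile factors, the groups overlapped, with log2 fold changes of 0.07 and 0.05. The SD of SUZ12 about its group means was 0.06 on the log2 scale, rank 137 of 14003 from the smallest, and its variance between libraries was 0.518 times what counting alone gives. A ratio under 1 was found in 1 of the 10 genes and in 2.79% of all genes tested, so at this depth no variation beyond counting was detectable for SUZ12.

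EED, which reads methylated lysine 27 and activates the enzyme, had counts of 325, 381 and 310 in the FNI libraries against 329, 382 and 347 in the FNI+I-125 libraries. These were 19.0, 24.0 and 18.3 CPM against 21.5, 23.3 and 20.4 CPM, with all 3 FNI+I-125 libraries inside the FNI range. EED had a log2 fold change of 0.09 with a standard error of 0.16 and a 95% interval from -0.30 to 0.48 (adjusted p = 0.785, edgeR's quasi-likelihood test). The ratio of EED to SUZ12 differed by 0.006 on the log2 scale (exact permutation test, p = 1).

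Among the 11 core and accessory PRC2 genes, all were tested, 5 had a positive and 6 a negative log2 fold change, and the median was -0.05. EZH1 was the 1 gene with an unadjusted p under 0.05 in edgeR's test, beside 17% of all genes tested. In 2 genes all FNI+I-125 libraries were higher, SUZ12 and the histone chaperone RBBP4 (log2 fold change 0.19, standard error 0.11). In 4 genes all were lower, which were EZH1, RBBP7, AEBP2 and PHF1, with log2 fold changes of -0.55, -0.18, -0.29 and -0.34. The last 3 were picked out after their values were seen. Counts of 2 higher and 4 lower among 11 stand beside 14.8% and 12.3% of all genes tested. Of 22 PRC1 genes, which ubiquitinate histone H2A or compact chromatin, 11 were positive and 11 negative with a median of 0.01. At an unadjusted p under 0.05 in edgeR's test 1 was higher and 3 were lower, and 0 passed after adjustment. These 4 of 22 stand beside 17% of all genes at that threshold, so the count is near the background. YAF2, a partner of RING1 proteins that also binds YY1, had a log2 fold change of 0.82 with a standard error of 0.28. PCGF2, a PRC1 scaffold also called MEL18, had -0.62 with a standard error of 0.19, and both had an adjusted p of 0.280 in edgeR's test. Of 5 genes that remove the Polycomb marks, 3 were positive and 2 negative with a median of 0.10, with the smallest p in each direction for ASXL2 of the H2A deubiquitinase (0.25, standard error 0.10) and for the lysine 27 demethylase KDM6A (-0.32, standard error 0.20).

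The other SMC complexes were read beside cohesin. Of 8 condensin genes, which compact chromosomes in mitosis, 6 were positive and 2 negative with a median log2 fold change of 0.51. Without overlap and higher were 3, beside 14.8% of all genes tested. An unadjusted p under 0.05 in edgeR's test was found for 1, beside 17% of all genes. That gene was NCAPG2 (0.95, standard error 0.36, adjusted p = 0.286), while NCAPH was at -0.01. Condensin and the proliferation markers shared their highest library, FNI+I-125 replicate 1, and their lowest, FNI replicate 3, and the part of proliferation in this difference was not tested. Of 6 SMC5/6 genes, which act in DNA repair, 3 were positive and 3 negative with a median of -0.03, and 0 had an unadjusted p under 0.05 in edgeR's test. NSMCE2 (0.33, standard error 0.25) and SMC5 (-0.23, standard error 0.16) had the smallest p in each direction.

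How stable each gene was between libraries was read from its SD of log2 CPM about the group means. The SD was 0.06 for SUZ12, 0.07 for CTCF, 0.07 for SMC1A, 0.11 for STAG2, 0.11 for YY1, 0.14 for SMC3, 0.16 for EED, 0.18 for NIPBL, 0.19 for RAD21 and 0.42 for EZH2. Neighbours in this order were not tested against each other, since each SD rests on 4 degrees of freedom. The median over the 10 genes was 0.12 beside 0.30 for all genes tested. SUZ12, CTCF and SMC1A were at or below the 2.74 percentile of all genes, STAG2, YY1, SMC3, EED, NIPBL and RAD21 lay from the 8.01 to the 28.8 percentile, and EZH2 stood at the 62.8 percentile. Spread depends on the level. The biological coefficient of variation (BCV) that edgeR fits for a gene was therefore set beside the value of its trend at the same abundance. It was below the trend for all 10 genes, as for 79% of all genes tested. Values ran from 0.188 against 0.326 for CTCF to 0.342 against 0.452 for EZH2. This fitted BCV is drawn toward the trend, so it is not the spread seen in the libraries of that gene alone. The highest library held less than 1.5 times the level of the lowest for 9 of the 10 genes, and for 28.4% of all genes. EZH2 was the exception at 2.66 times.

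**Figure D5:**
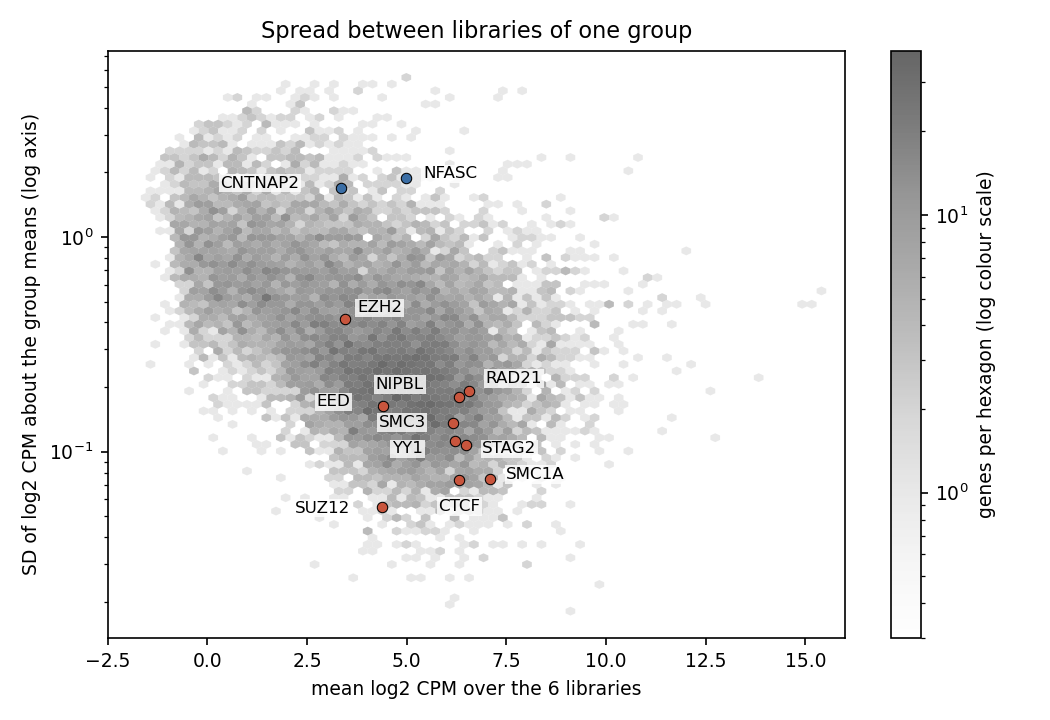
SD of log2 CPM about the group means on a log axis against the mean log2 CPM over the 6 libraries. Grey hexagons count the 14003 genes tested, red points are the 10 genes and blue points are CNTNAP2 and NFASC. All red points but EZH2 lie at an SD of 0.19 or less, that of EZH2 is at 0.42, and the blue points are at 1.70 and 1.88.

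FNI replicate 3 was the highest library for 4 members, the cohesin genes RAD21, SMC1A, SMC3 and STAG2, beside 30% of all genes tested. FNI+I-125 replicate 1 was the highest for another 4, CTCF, NIPBL, EZH2 and SUZ12, beside 24.2% of all genes. The lowest level of CTCF, SMC1A, SMC3 and NIPBL was in FNI+I-125 replicate 2, which was the lowest library for 15.4% of all genes. With 10 members these counts are a description, and nothing particular to the members is read from them. The 10 genes summed to 654, 670 and 732 CPM in the FNI libraries against 709, 630 and 669 CPM in the FNI+I-125 libraries, with overlap between the groups.

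Markers of the cell types in the nerve had larger median log2 fold changes than the 10 genes, and the gene of each list with the smallest p in edgeR's test is given with its median. The medians of the log2 fold change were -2.54 for 9 Schwann cell markers, with PMP22 (-3.29, standard error 1.13), 1.49 for 6 macrophage markers, with ITGAM (1.90, standard error 0.60), and 1.35 for 6 T cell markers, with CD3G (2.08, standard error 1.09). They were 6.26 for 8 skeletal muscle markers, with NEB (7.06, standard error 2.07), which FNI+I-125 replicate 3 did not share, and -1.33 for 8 gland and epithelial markers, with CLDN10 at -5.64 and EPCAM at 0.10. Medians were closer to 0 for 6 fibroblast markers (0.30, with LUM at 0.53 and DCN at -0.42) and 5 endothelial markers (-0.16, with KDR at 0.23 and TEK at -0.56), and 4 adipocyte markers had -1.55 (ADIPOQ at -0.82). None of these genes passed the adjusted threshold in edgeR's test, and at an unadjusted p under 0.05 there were 3 Schwann cell, 3 macrophage, 0 T cell, 8 muscle, 2 gland, 0 fibroblast, 1 endothelial and 1 adipocyte markers. An unadjusted p under 0.05 in edgeR's test was found for 17% of all genes tested. The part of the marker shifts in the values of the 10 genes was not tested. With muscle and gland markers left out of the library sizes, the log2 fold change of CTCF was -0.07, as before. That step changed only the scaling of the libraries, so it cannot show whether muscle or gland tissue bears on the CTCF level.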

How the data were processed

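The authors sequenced mRNA of facial nerves on an Illumina HiSeq platform and deposited 1 table of raw counts per library, whole numbers per gene with no normalization and no pooling. HISAT2 and build OryCun2.0 are named in the submitters' processing notes. The counting program, annotation and strand setting are not given in the sources used here. The labels name the mirVana kit and a stranded TruSeq kit, and the paper names TRIzol. If strand was ignored in counting, reads of overlapping antisense genes cannot be told apart.

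edgeR 4.0.16 in R 4.3.3 was the main tool (TMM, filterByExpr with a minimum count of 10, glmQLFit and glmQLFTest, two-sided, Benjamini-Hochberg over 14003 genes). limma 3.58.1 and DESeq2 1.42.0 were alternatives. The common biological coefficient of variation was 43.0% and the median prior degrees of freedom 2.01. Intervals of 95% used the fit's degrees of freedom, and log2 CPM used a prior count of 2. The exact permutation test covered the 10 distinct splits of log2 CPM. Scripts were tested on simulated data.

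The members and lists were chosen with earlier results of these data known. Named genes were all members, CNTNAP2, NFASC, STAG1, EZH1, MAU2, the gene of each list with the smallest p in each direction, and the 3 genes nearest to CTCF in profile. PDS5A, PDS5B, HDAC8, SGO1, ESPL1, ESCO2, RBBP7, AEBP2 and PHF1 were added after their values were seen. RefSeq's table for assembly mOryCun1.1 gave symbols for LOC numbers only. Spreadsheet dates stood in place of 25 gene names (0.188% of counts), which were tested and are not named.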

Additional observations from a re-analysis of the deposited data

How the results depend on the processing

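With 3 libraries per group and this spread, the 95% intervals limit what could be seen, from 0.796 to 1.13 times the FNI level for CTCF and from 0.853 to 2.48 times for EZH2. The count of the 10 genes with a p under 0.05, adjusted or unadjusted, was 0 under every alternative run, among them DESeq2, which called 893 of 14003 genes, and the fit without FNI+I-125 replicate 3, which called 40. The count without overlap was 0 with library size only and 0 with upper-quartile factors, and 1 to 3 with 1 library left out, beside 33.6% to 40.7% of all genes. SUZ12 was among them in each of those 6 cases, joined by CTCF or EZH2 in 2 cases each and by YY1, SMC1A or EED in 1 case each. The log2 fold change of CTCF stayed between -0.13 and -0.06 over all alternatives. With 1 library left out it ran from -0.21 to 0.030 for RAD21, -0.11 to 0.023 for STAG2, -0.11 to 0.0068 for SMC3, -0.021 to 0.19 for NIPBL, -0.0046 to 0.21 for EED, -0.079 to 0.056 for STAG1 and -1.10 to 1.19 for CNTNAP2, and the median of the 10 genes from -0.07 to 0.01. The signs of these values near 0 turned with FNI replicate 3, FNI+I-125 replicate 1 or FNI+I-125 replicate 2 left out, and for CNTNAP2 with FNI+I-125 replicate 3 also. NFASC passed the adjusted threshold with DESeq2 alone, and the cause was not tested. The groups share replicate numbers 1 to 3, but deviations of same-numbered libraries had correlations of 0.05, -0.23 and -0.19 across genes, so the numbers gave no sign of pairing. With the replicate block, the log2 fold change was -0.08 for CTCF and -0.17 for CNTNAP2, and 0 of the 10 genes had an unadjusted p under 0.05.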
